A study of Homo sapiens with 11 samples.

Results

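The claudins are the membrane proteins that build tight junctions, and 10 of their genes were followed here through the peak lists of a chromatin immunoprecipitation and sequencing (ChIP-seq) study of pancreatic cancer cell lines. The members were CLDN1, CLDN2, CLDN3, CLDN4, CLDN7, CLDN12, CLDN15, CLDN16, CLDN18 and CLDN23, which are 10 of 20037 protein-coding genes in the RefSeq annotation. They were chosen as a gene family, and 14 further claudin genes were counted among the other tight junction genes. A peak was given to a member when its summit lay in the member's gene span extended by 50 kb on each side, called the window. The windows measured 101.3 to 221.8 kb, with a median of 109.6 kb, against a median of 124.1 kb over all protein-coding genes.

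Claudins of neighbouring epithelial cells meet at the top of the lateral membrane and close or open the space between the cells. Some tighten that barrier, whereas others form channels that let chosen ions and water pass, so the set of claudins a duct cell makes sets what leaks across the duct wall. MYRF is a membrane-bound transcription factor that cuts itself free from the endoplasmic reticulum and moves to the nucleus, and its textbook role is in oligodendrocytes, where it turns on the genes of myelin. FOS pairs with JUN proteins to form AP-1, a factor that answers growth and stress signals. H3K27ac is acetylation of lysine 27 on histone H3, a mark of active promoters and enhancers.

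Each of 5 groups held 2 libraries. H3K27ac was mapped in a CFPAC1 clone carrying the lentiviral CRISPR plasmid (lentiCRIPSv2 in the labels) with wild-type Cas9 and a guide against MYRF (the MYRF knockout clone), and in a control clone isolated by dilution from CFPAC1 cells that had received the plasmid. FOS was mapped in a CFPAC1 control clone isolated in the same way. MYRF was mapped with a home-made antibody in the original, uncloned CFPAC1 line and in the original HPAF2 line. Both lines come from human pancreatic ductal adenocarcinoma. Each H3K27ac group was 1 clone, so the knockout and control differed in clone as well as in MYRF, and these cannot be told apart. No peak list was at hand for the HPAF2 input, which was not analysed here. H3K27ac at MYRF itself checks nothing about the knockout, which rests on the labels.

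The MYRF lists held 3702 to 4743 peaks, and the FOS lists 29087 and 36349. The H3K27ac lists held 107586 and 110498 peaks over 87.88 and 92.95 Mb in the knockout clone, against 116466 and 109352 peaks over 100.55 and 95.2 Mb in the control clone. All 8 epithelial and pancreatic duct marker genes had H3K27ac within 1 kb of a gene end in both libraries of both clones. Of 22 marker genes of other cell types, 5 did so in the knockout clone and 4 in the control clone. Depth is unknown, because no list gives reads. Each peak has the authors' fold enrichment, here called fold, which was used only to rank peaks within a list. A percentile of 90 means that the peak outranked 90% of its list. Percentiles of lists of different lengths were not compared as changes.

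MYRF sites found in both libraries of a line lay in 4 of the 10 windows, and the highest-ranked of them was at CLDN2. A MYRF peak in both CFPAC1 libraries occurred in 2 of 10 member windows, those of CLDN2 and CLDN3, against 16.6% of all protein-coding genes. In HPAF2 the count was 4 of 10, against 16.6% of all genes, with CLDN1 and CLDN16 added through a site that both windows hold. The sites of CLDN2 and CLDN3 were shared by both lines, which is 2 of 10 members against 9.19% of all genes. No test was made over the 10 members, and windows that hold several genes share their sites. FOS peaks in both libraries occurred at 9 of 10 members, all but CLDN3, against 67.7% of all genes.

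**Figure D1:**
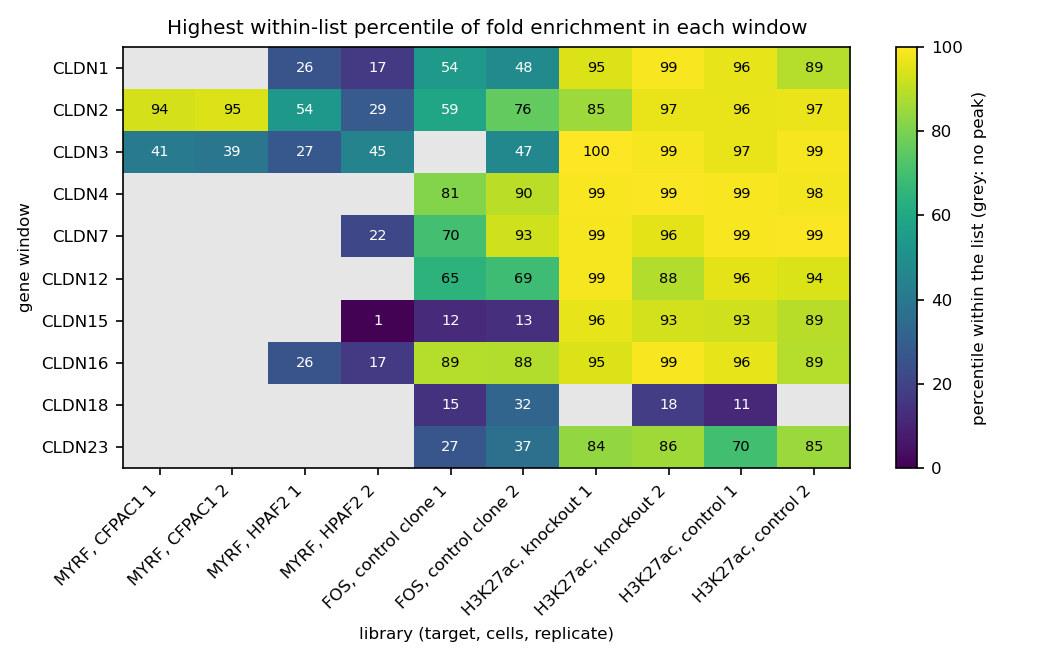
Highest within-list percentile of fold enrichment in each claudin window (rows) for each of the 10 libraries (columns, 2 per group); grey cells hold no peak. CLDN2 is the sole member with MYRF percentiles above 90 in CFPAC1 (93.7 and 94.8), and CLDN18 has no H3K27ac percentile above 18.3.

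Among the claudins known to form ion channels, CLDN2 (chrX:106900164-106930861, GRCh38) forms a channel for cations and water. Its strongest MYRF site was chrX:106895085-106895580, 4774 bp before the first of its annotated starts and outside the gene. The closest gene end was that of RIPPLY1, 4673 bp away. MYRF folds there were 13.6 and 15.5 in CFPAC1, at percentiles 93.7 and 94.8. In HPAF2 the folds were 5.51 and 3.27, at percentiles 53.5 and 4.0, so the site ranked high in both CFPAC1 lists, in the middle of the list of HPAF2 replicate 1 and low in that of replicate 2. FOS lay over the same site with folds of 5.92 and 7.72, at percentiles 58.9 and 75.9. In the 2000 bp around the MYRF summit, H3K27ac peaks covered 1660 and 1832 bp in the knockout clone, against 1835 and 1750 bp in the control clone, and these values overlapped.

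The other MYRF site of CLDN2 lay inside the gene at chrX:106917773-106918116, 356 bp before the second annotated start. It was called in both HPAF2 libraries, with folds of 4.16 and 4.50 at percentiles 20.9 and 28.6. In CFPAC1 it was called in replicate 1, with a fold of 5.68 at percentile 61.1. FOS folds there were 2.72 and 5.89, at percentiles 1.3 and 58.3, so replicate 1 was near the bottom of its list. H3K27ac covered 1540 and 1923 of 2000 bp in the knockout clone, against 2000 and 1823 bp in the control clone. The promoters of both starts are printed because the second was the sole member promoter overlapped by a MYRF peak, and the first holds an AP-1 motif with no FOS peak over it. Each runs from 250 bases before to 50 bases after the start, 5′ to 3′, from RefSeq on GRCh38.p14, plus strand, with capitals marking motif matches.
CLDN2 first start, chrX:106899914-106900213: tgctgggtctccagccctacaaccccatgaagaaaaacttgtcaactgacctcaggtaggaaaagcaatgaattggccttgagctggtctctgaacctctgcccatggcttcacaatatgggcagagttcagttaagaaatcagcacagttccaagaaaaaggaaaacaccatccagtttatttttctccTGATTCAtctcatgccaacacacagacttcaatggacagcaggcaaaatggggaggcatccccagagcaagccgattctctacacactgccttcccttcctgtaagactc
CLDN2 second start, chrX:106918110-106918409: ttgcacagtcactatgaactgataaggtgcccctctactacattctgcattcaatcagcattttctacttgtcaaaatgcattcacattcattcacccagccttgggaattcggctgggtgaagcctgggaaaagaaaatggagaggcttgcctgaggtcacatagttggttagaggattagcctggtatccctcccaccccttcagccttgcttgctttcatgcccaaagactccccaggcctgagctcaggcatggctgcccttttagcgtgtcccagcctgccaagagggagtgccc
The motifs searched on both strands were CTGGCAC and CTGGTAC for MYRF and TGANTCA for AP-1. Neither was found in the second promoter, and the first holds TGATTCA beginning 60 bases before the start. The summits of the site near the second start lay before the printed stretch, so the sequence under them was not searched. They were at chrX:106918004 and chrX:106917877 for MYRF in HPAF2, and at chrX:106917832 and chrX:106918102 for FOS. The first promoter was under no MYRF or FOS peak, and acetylation overlapped both promoters in all 4 libraries.

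**Figure D2:**
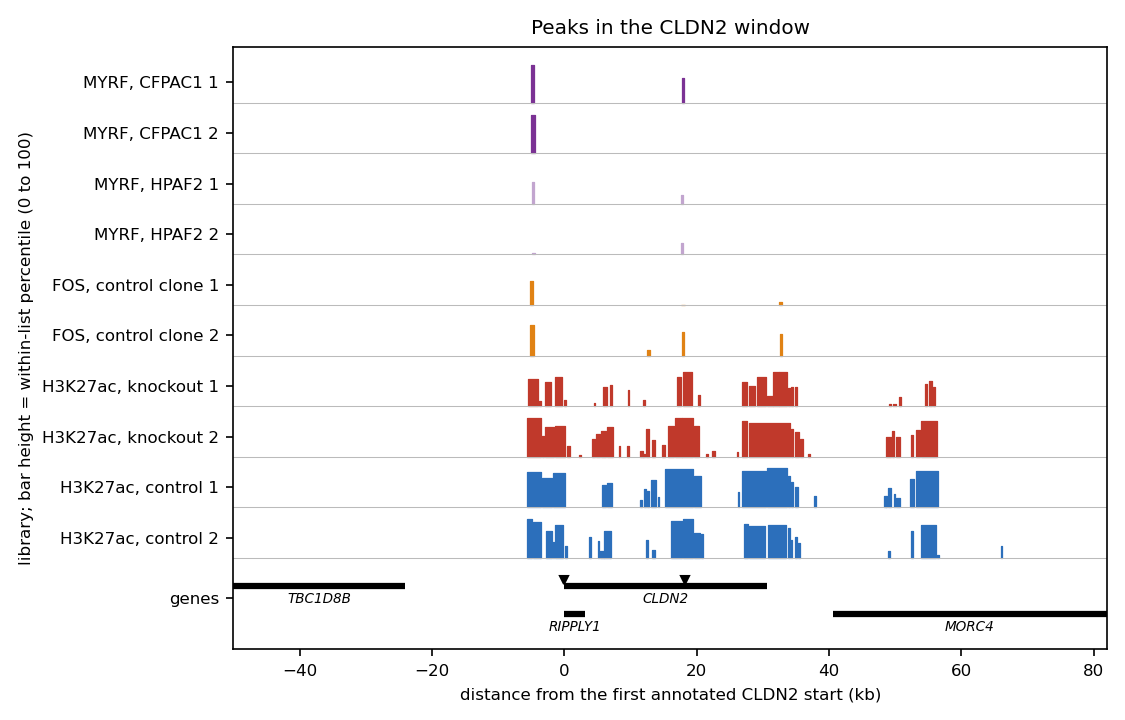
Peaks of all 10 libraries in the CLDN2 window by distance from the first annotated start (kb); bar height is the within-list percentile from 0 to 100, black bars are genes and triangles the annotated CLDN2 starts. The MYRF site 4774 bp before the first start lies under FOS and H3K27ac peaks of every list shown, and the second start lies in acetylated chromatin of both clones.

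CLDN15 (chr7:101232094-101238820) is a cation-channel claudin known from the intestine. It had no MYRF peak in both libraries of either line, and its strongest FOS site, chr7:101217731-101217932, was weak, with folds of 3.65 and 3.67 at percentiles 11.9 and 13.4. That site was 284 bp before the annotated start of ZNHIT1 and 19921 bp downstream of the CLDN15 start. H3K27ac covered 0 of the 4 kb around the CLDN15 start in all 4 libraries. The acetylation in its window lay elsewhere. H3K27ac peaks of all 4 libraries overlapped the gene at its end away from the start. Their highest percentiles were 85.7 and 74.8 in the knockout clone and 63.2 and 60.1 in the control clone. The region of highest mean percentile over the 4 lists had its midpoint 321 bp from the annotated start of PLOD3. In replicate 2 of both clones another region, chr7:101243974-101245118 in the knockout library, ranked higher.

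CLDN16 (chr3:190290361-190412138) is known for magnesium and calcium reabsorption in the kidney, and its span contains the whole of CLDN1. Its strongest FOS site, chr3:190386011-190386808, had the highest mean percentile of any member, 88.5, with folds of 10.1 and 10.5. It lay 1688 bp before the second annotated CLDN16 start. Around the summit H3K27ac covered 1931 and 1940 of 2000 bp in the knockout clone, against 1714 and 1387 bp in the control clone. The knockout libraries were both higher in this covered length, but no test was made on single sites. The highest H3K27ac percentiles there were 60.6 and 86.4 in the knockout clone, and 86.7 and 62.5 in the control clone. The first annotated start had no acetylation in any of the 4 libraries, whereas the 4 kb around the second held 1611 and 1292 bp in the knockout clone and 1062 and 834 bp in the control clone. The promoter of that second start is printed because it holds a MYRF motif with no MYRF peak over it.
CLDN16 second start, chr3:190387913-190388212, plus strand: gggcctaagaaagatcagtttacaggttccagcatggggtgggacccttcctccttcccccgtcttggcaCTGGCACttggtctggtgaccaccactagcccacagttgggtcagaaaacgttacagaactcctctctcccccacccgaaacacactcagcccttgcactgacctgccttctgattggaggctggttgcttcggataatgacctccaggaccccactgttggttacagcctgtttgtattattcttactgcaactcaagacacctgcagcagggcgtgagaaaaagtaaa
The capitals mark CTGGCAC, which begins 180 bases before the start.

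Among the claudins known to tighten the barrier, CLDN1 (chr3:190305707-190322446) is needed for the water barrier of skin. The MYRF site in its window is also in the CLDN16 window, at chr3:190307080-190307481, inside both genes and 15182 bp downstream of the CLDN1 start. It was found in HPAF2 alone, with folds of 4.33 and 4.001 at percentiles 25.9 and 17.0, and no CFPAC1 library had a MYRF peak in the window. FOS was called there in replicate 2, with a fold of 4.24. H3K27ac covered 1409 and 1090 of 2000 bp in the knockout clone, against 1521 and 483 bp in the control clone, where replicate 2 was the low library. The FOS site found in both libraries, chr3:190265809-190266060, is likewise shared with CLDN16 and had folds of 5.59 and 5.20. By mean percentile the highest-ranked region acetylated in all 4 libraries, chr3:190344567-190347722, lay 23698 bp upstream of the CLDN1 start, with folds of 17.9 and 23.6 in the knockout clone and 17.8 and 14.1 in the control clone. It was overlapped by no MYRF or FOS peak.

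CLDN3 (chr7:73768997-73770270) and CLDN4 (chr7:73830996-73832690) are neighbours, and both proteins are known as barrier claudins and as receptors for Clostridium perfringens enterotoxin. CLDN3 had the shared MYRF site and no FOS site in both libraries, and CLDN4 had the reverse. The MYRF site, chr7:73743055-73743254, lay 27134 bp downstream of the CLDN3 start and 4334 bp before the annotated start of ABHD11. MYRF folds were 4.77 and 4.88 in CFPAC1, at percentiles 41.0 and 39.2, and 4.09 and 5.14 in HPAF2, at percentiles 19.5 and 44.7. These are ranks below the middle of all 4 lists. The site sat in acetylated chromatin, with 2000 and 1837 of 2000 bp covered in the knockout clone, against 2000 and 2000 bp in the control clone. The acetylated region around it had folds of 23.1 and 22.1 in the knockout clone and 18.1 and 24.9 in the control clone, and by mean percentile it was the highest-ranked region of the CLDN3 window present in all 4 libraries.

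CLDN4 had 3 FOS sites found in both libraries and no MYRF peak in any of the 4 MYRF lists. The highest-ranked FOS site, chr7:73850806-73852271, lay 20664 bp downstream of the start, with folds of 8.37 and 11.04 at percentiles 81.4 and 89.8. The nearest gene end was the annotated start of METTL27, 9144 bp away. A further site, chr7:73822481-73823117, lay 8247 bp before the start with folds of 6.12 and 4.61. The promoter site, chr7:73830186-73831326, had folds of 6.84 and 7.09 at percentiles 69.9 and 71.3. The CLDN4 promoter is printed because it is the sole member promoter with AP-1 motifs under FOS peaks of both libraries.
CLDN4 start, chr7:73830746-73831045, plus strand: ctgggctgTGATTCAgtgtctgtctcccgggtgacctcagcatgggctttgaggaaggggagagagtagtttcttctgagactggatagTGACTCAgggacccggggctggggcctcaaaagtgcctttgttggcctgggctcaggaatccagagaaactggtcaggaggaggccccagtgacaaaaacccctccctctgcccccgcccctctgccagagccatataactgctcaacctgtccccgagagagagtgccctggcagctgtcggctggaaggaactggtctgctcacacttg
The capitals mark TGATTCA, which begins 242 bases before the start, and TGACTCA, which begins 161 bases before it. The FOS summits lay 104 and 70 bp from the first of these and 185 and 151 bp from the other. H3K27ac covered 4000 and 4000 bp of the 4 kb around this start in the knockout clone, against 4000 and 3890 bp in the control clone, the fullest cover of any member start.

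**Figure D3:**
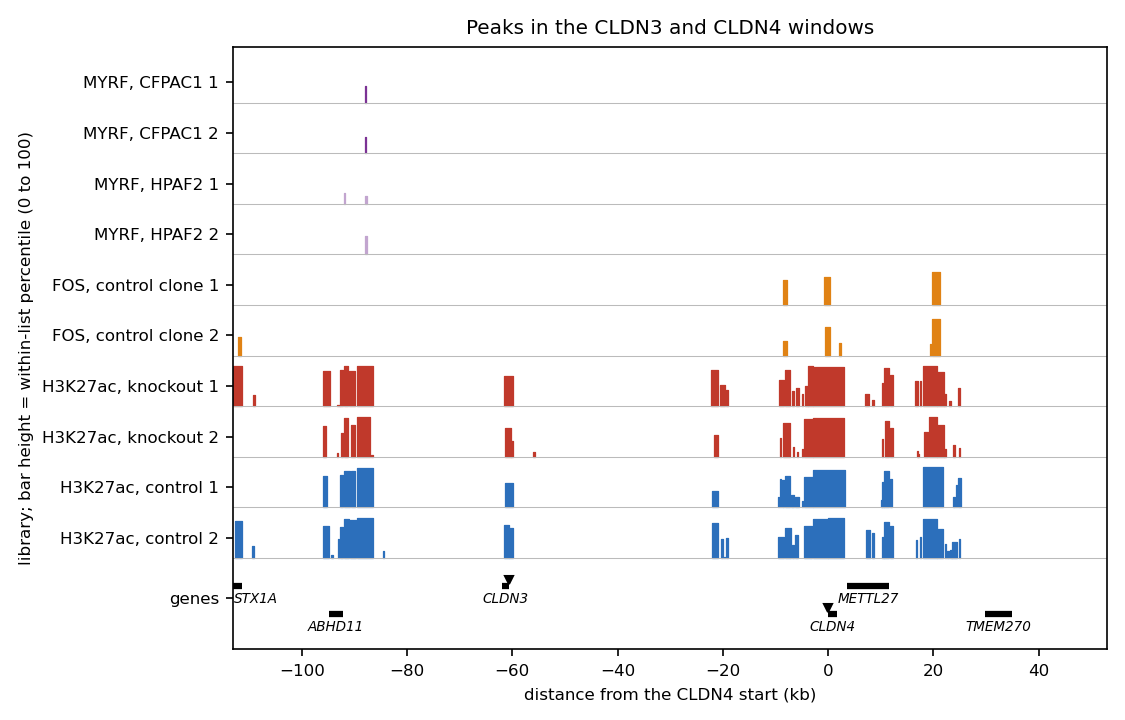
Peaks of all 10 libraries across the CLDN3 and CLDN4 windows by distance from the CLDN4 start (kb); bar height is the within-list percentile from 0 to 100, black bars are genes and triangles the annotated starts of CLDN3 and CLDN4. The MYRF site near ABHD11 and the 3 FOS sites around CLDN4 do not coincide, and all 4 sites overlap H3K27ac peaks of both clones. At the FOS site before the CLDN4 start, the summit falls between H3K27ac peaks in both control libraries and in knockout replicate 1.

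CLDN7 (chr17:7259903-7263213), a claudin of many epithelia that binds the adhesion protein EPCAM, lies among 11 other protein-coding genes in its window. No MYRF peak was found there in both libraries of a line. Its FOS site, chr17:7219603-7220298, had folds of 6.88 and 12.4 at percentiles 70.3 and 92.7, but lay 16 bp from an end of DLG4 and 42444 bp downstream of the nearer CLDN7 start. Around that nearer start H3K27ac covered 3685 and 3556 bp of 4 kb in the knockout clone, against 3777 and 3608 bp in the control clone.

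CLDN18 (chr3:137998816-138033649) is a barrier claudin of stomach and lung, with separate first exons for the gastric and lung forms. It was the member with the least acetylation, as H3K27ac covered 0 and 891 bp of its window in the knockout clone, against 200 and 0 bp in the control clone. Both annotated starts had 0 bp in all 4 libraries. Its FOS sites found in both libraries lay 45646 and 49089 bp beyond the gene, close to the edge of the window. Folds were 3.78 and 3.76 at the nearer site and 3.55 and 4.49 at the farther. The MYRF motif CTGGCAC begins 203 bases before the second start, where no MYRF peak was called.

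CLDN12 (chr7:90403461-90415954) is an unusual claudin without the tail motif by which other claudins bind scaffold proteins. It had no MYRF peak in any of the 4 MYRF lists and 3 FOS sites found in both libraries. The highest-ranked, chr7:90411531-90411952, lies inside the gene 8186 bp downstream of the start, with folds of 6.33 and 5.76. H3K27ac around its summit covered 1322 and 0 bp in the knockout clone, against 788 and 0 bp in the control clone, so each clone had a library with none. The remaining pair, starting at chr7:90383562-90384016, lay 19709 and 19058 bp before the start with folds of 6.14 and 5.38, and of 5.47 and 5.34. Around the start H3K27ac covered 2375 and 1825 bp of 4 kb in the knockout clone, against 1912 and 1963 bp in the control clone.

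CLDN23 (chr8:8701937-8704096) had no other protein-coding gene in its window and no MYRF peak in any MYRF list. Its FOS sites found in both libraries were chr8:8686208-8686408, with folds of 4.24 and 4.65, and chr8:8689655-8690111, with folds of 4.30 and 4.65. They lay 15643 and 11926 bp outside the gene. In the 2000 bp around the summit of the first, H3K27ac covered 717 and 452 bp in the knockout clone, against 717 and 1233 bp in the control clone. Around the second summit it covered 1127 and 250 bp in the knockout clone, against 502 and 325 bp in the control clone. Around its lower gene end H3K27ac covered 2052 and 2076 bp of 4 kb in the knockout clone, against 1690 and 1919 bp in the control clone. Its start was not in the promoter table.

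Acetylation at the annotated starts sorted the members into covered and bare ones, and the clones did so alike. H3K27ac was found in all 4 libraries within 2 kb of a start of CLDN1, CLDN2, CLDN3, CLDN4, CLDN7, CLDN12 and CLDN16, and at the ends of CLDN23. It was found in none at the starts of CLDN15 and CLDN18. CLDN1 had 2383 and 2346 bp in the knockout clone, against 2253 and 822 bp in the control clone, again with control replicate 2 as the low library. CLDN3 had 1696 and 1460 bp in the knockout clone, against 1558 and 1614 bp in the control clone. At CLDN2, knockout replicate 1 was the low library at both starts. The first had 1192 and 2383 bp in the knockout clone and 1954 and 1757 bp in the control clone, and the second had 2036 and 3619 bp in the knockout clone and 3771 and 3638 bp in the control clone.

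**Figure D4:**
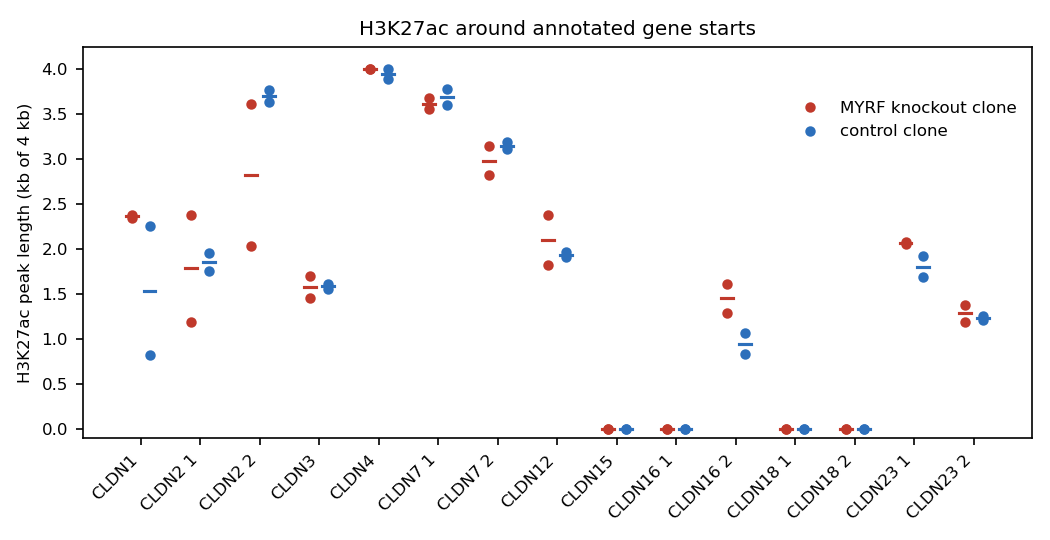
Length covered by H3K27ac peaks (kb) in the 4 kb around each annotated start, with a point for each of the 2 libraries per clone (knockout clone left, control clone right) and a dash at their mean; numbers after a name are starts in chromosome order, and for CLDN23 the gene ends. CLDN4 is covered over almost all of the 4 kb in both clones, and CLDN15 and both CLDN18 starts are at 0 in all 4 libraries.

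No claudin window was found to differ in covered length between the MYRF knockout clone and the control clone. Covered length is the number of base pairs in the window under H3K27ac peaks, and the test was limma on log2(covered bp + 100), centred on each library's median, over 17214 genes with a mean of at least 500 bp. Of 9 members tested, 0 were past an adjusted p of 0.05, against 0.00% of all genes in either direction, and 0 members had an unadjusted p under 0.05, against 5.11% (880 genes). The lowest adjusted p of any gene was 0.734. CLDN18 was under the length filter and was not tested. The labels do not say that the libraries of a clone came from separate cultures, so these p-values measure the spread between libraries, which may be technical. With 2 libraries against 2, an exact permutation test could not go below 0.33.

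CLDN16 had the largest fitted difference of the members, with 16156 and 14702 bp in the knockout clone, against 17106 and 7643 bp in the control clone. The log2 difference was 0.50 (SE 0.37, 95% interval -0.43 to 1.42, limma adjusted p = 0.985). CLDN1, in the same stretch, had 10620 and 9802 bp in the knockout clone, against 12145 and 5255 bp in the control clone, a log2 difference of 0.42 (SE 0.38). For both genes control replicate 2 was low and the knockout values lay between the control values. Without control replicate 1 the log2 differences were 1.06 for CLDN16 and 1.00 for CLDN1, and without control replicate 2 they were -0.06 and -0.16. CLDN2 had 16246 and 30188 bp in the knockout clone, against 27776 and 22089 bp in the control clone. Its log2 difference was -0.09 (SE 0.31, 95% interval -0.87 to 0.69, limma adjusted p = 0.988), and the knockout libraries lay on either side of both control libraries. Without knockout replicate 1 it was 0.36, and without knockout replicate 2 it was -0.54.

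The narrowest interval belonged to CLDN7, which had 19290 and 17817 bp in the knockout clone and 18243 and 19328 bp in the control clone. Its log2 difference was 0.05 (95% interval -0.24 to 0.34). CLDN4 had 21679 and 16729 bp in the knockout clone, against 18800 and 21859 bp in the control clone, a difference of -0.02 (95% interval -0.45 to 0.42). CLDN3 had 12491 and 8536 bp in the knockout clone, against 9148 and 12003 bp in the control clone, a difference of 0.05 (95% interval -0.56 to 0.66). CLDN12 had 8958 and 4239 bp in the knockout clone, against 6125 and 3951 bp in the control clone, a difference of 0.39 (SE 0.40), which was -0.14 without knockout replicate 1 and 0.92 without knockout replicate 2. CLDN15 and CLDN23 had differences of 0.09 and 0.23. Leaving out a library turned the sign at CLDN3, CLDN4, CLDN7 and CLDN15, with values between -0.22 and 0.32, while CLDN23 ran from 0.04 to 0.41. In all 10 windows the libraries of the clones overlapped, against 35.6% of tested genes whose libraries did not. The median log2 difference was 0.09 over the 9 members, 7 of them above 0, and 0.01 over all genes. Without centring 5 of the 9 were above 0, the median was 0.02 over the members and -0.06 over all genes, and CLDN3 and CLDN7 were at -0.02.

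**Figure D5:**
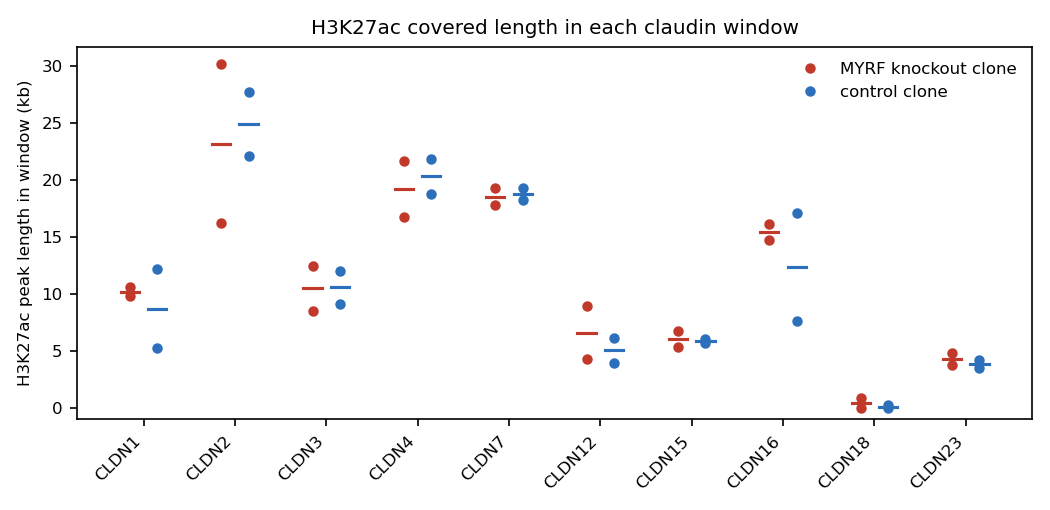
Length covered by H3K27ac peaks (kb) in each claudin window, with a point for each of the 2 libraries per clone (knockout clone left, control clone right) and a dash at their mean. The clones overlap in every window, and control replicate 2 is the low library at CLDN1 and CLDN16 (5255 and 7643 bp).

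As a share of the window, acetylation was densest at CLDN4, where it covered 18.9% ± 3.44 in the knockout clone and 20.0% ± 2.13 in the control clone (SD, n = 2 libraries each). CLDN2 had 17.8% ± 7.54 in the knockout clone and 19.1% ± 3.08 in the control clone, and CLDN7 had 18.0% ± 1.01 and 18.2% ± 0.74, so these 3 members could not be ordered beyond their spread. CLDN3 followed with 10.4% ± 2.76 in the knockout clone and 10.4% ± 1.99 in the control clone. CLDN1, CLDN16, CLDN15, CLDN12 and CLDN23 had means over all 4 libraries of 8.10%, 6.27%, 5.58%, 5.17% and 3.96%, with neighbours again within their spread. CLDN18 was last, with 0.331% ± 0.467 in the knockout clone and 0.074% ± 0.105 in the control clone.

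The member windows held 142 distinct acetylated regions after peaks of the 4 libraries were merged. Regions present in all 4 libraries made up 59 (41.5%), against 40.2% of 134465 regions in the whole series. A region absent from both knockout and present in both control libraries was called lost, and the opposite gained. The members had 1 lost region (0.704%), against 3.51% of all regions, and 2 gained regions (1.41%), against 1.70% of all regions. By gene, 1 of 10 members had a lost region, against 21.9% of genes, and 1 had a gained region, against 15.3% of genes. Both gained regions were at CLDN2, inside the gene and between its starts. The region chrX:106904323-106904833 had folds of 3.38 and 5.02 in the knockout libraries, and chrX:106909571-106909945 had folds of 4.84 and 4.11. Neither region held a peak of either control library. Just before the first of them, at chrX:106903887-106904178, control replicate 2 had a peak with a fold of 5.54. The lost region, chr8:8686584-8687090, lay outside CLDN23 and had no peak in either knockout library, against folds of 5.25 and 5.78 in the control libraries. All 3 were in the lower or middle part of their lists, at percentiles from 7.2 to 53.7, and none was overlapped by a MYRF or FOS peak. The lost region was nevertheless close to FOS, within the 2000 bp around the summit of the CLDN23 site chr8:8686208-8686408. Any link between them was not tested.

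Both distinct MYRF sites found in CFPAC1 had H3K27ac in the surrounding 2000 bp in all 4 libraries, against 81.9% of the 2830 sites found in both CFPAC1 lists. All 4 sites found in HPAF2 had it as well, against 75.0% of 2907 sites, but this acetylation was measured in CFPAC1 clones and not in HPAF2. Of 17 distinct FOS sites in the member windows, 14 (82.4%) had H3K27ac in all 4 libraries, against 71.1% of 27005 FOS sites, and 1 had it in none. Within 1 kb of an annotated start of any gene in the promoter table lay 4 of the 17 FOS sites, 2 of them at member starts, against 8.54% of all FOS sites. The same held for 0 of 2 MYRF sites of CFPAC1, against 12.1%, and for 1 of 4 of HPAF2, against 11.1%, that site being at the second start of CLDN2. Promoter sequences were matched for 9 members, with 13 entries. The MYRF motif was in 2 entries and AP-1 in 4, against 7.04% and 6.15% of 22199 promoters of protein-coding genes. The further AP-1 matches were TGAGTCA, beginning 219 bases before the CLDN15 start, and TGAATCA, beginning 246 bases before the first CLDN16 start, and no FOS peak lay over either promoter.

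Among 41 other tight junction genes, 11 had a MYRF peak in both CFPAC1 libraries, 14 in both HPAF2 libraries and 9 a site shared by both lines, against the 16.6%, 16.6% and 9.19% of all genes given above. The 9 were the claudins CLDN6, CLDN9, CLDN10, CLDN22 and CLDN24, the adhesion receptor CXADR, the scaffolds TJP1 and AFDN and the polarity protein PARD6B. CLDN6 and CLDN9 shared a site, as did CLDN22 and CLDN24. Long genes have long windows that can hold more peaks, and the window lengths of the 41 were not compared with those of all genes. The TJP1 site lay 149172 bp downstream of its nearest start, and an AFDN site, chr6:168007801-168008111, lay 180328 bp downstream of its own. The AFDN site chr6:167849742-167850457 had folds of 29.9 and 33.0 in CFPAC1 and 18.4 and 19.8 in HPAF2, and the PARD6B site chr20:50724917-50725490 had folds of 10.7 and 9.14 in CFPAC1 and 29.0 and 31.0 in HPAF2. At CXADR the folds were 16.7 and 15.7 in CFPAC1 and 9.11 and 15.6 in HPAF2. These 3 genes therefore had MYRF sites at percentiles of 83.8 to 99.2 in every MYRF list, a range that no site of the 10 members reached in both lines. FOS peaks in both libraries occurred at 34 of the 41 genes, against 67.7% of all genes. By limma 39 of them were tested for H3K27ac covered length, 0 were past the threshold in either direction, 1 had an unadjusted p under 0.05, against 5.11% of all genes, and their median log2 difference was -0.03.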

How the data were processed

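The data were MACS2 peak lists, 1 for each of 10 ChIP-seq libraries. The submitters' processing notes name MACS2 2.1.0.20150731, Bowtie2 2.2.6, Trimmomatic 0.38 and SAMtools, and the build GRCh38 (hg38). The control of each peak call is not given in the sources used here, which leaves the baseline of the CFPAC1 folds unknown. Each deposited list holds, per peak, a fold enrichment (a ratio set by the authors), a score, and p and q as -log10 values. Without reads in the files, depth is unknown, and intervals based on it are not given.

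Gene spans, names and promoters came from RefSeq (GRCh38.p14), and all 10 members and 41 other tight junction genes were matched by symbol. Coordinates are 1-based. Percentiles rank the fold within a list. Peaks of the replicates counted as shared when they overlapped by at least 1 bp, and a site is given with its coordinates in replicate 1. H3K27ac peaks of 4 libraries were merged into regions and scored as present or absent. Covered length was tested with limma 3.58.1 (R 4.3.3; eBayes with trend) on log2(covered bp + 100), centred on library medians, with Benjamini-Hochberg adjustment over 17214 genes and a threshold of 0.05. Centring removed a median shift of -0.07 on the log2 scale (knockout minus control). The fit was tested on simulated data. Other computation used Python 3.11.15, numpy 2.4.6, pandas 2.3.3 and matplotlib 3.10.9. The members, lists and tests were chosen with earlier results of these data known. Described for every member were its MYRF sites, lost and gained regions, highest-ranked FOS site and starts. Other tight junction genes were named where a MYRF site was shared by both lines. Alternatives covered the overlap rule, the -log10 q, the window, region merging, the pseudocount, filter, centring, block and leaving out each replicate.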

Additional observations from a re-analysis of the deposited data

How the results depend on the processing

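Limited to peaks with a -log10 q of at least 10, members with a MYRF peak fell to 1 in CFPAC1 (CLDN2), 0 in HPAF2 and 0 shared, and members with a FOS peak to 3 (CLDN12, CLDN16 and CLDN4), with 2 lost regions and 1 gained region. With windows of 10 kb on each side, 1 member had a MYRF peak in CFPAC1 and 1 a shared peak (both CLDN2), 4 had a FOS peak, and 0 regions were lost. In HPAF2 3 members had a MYRF peak under that rule (CLDN1, CLDN16 and CLDN2). Without HPAF2 replicate 1 the HPAF2 count was 6, with CLDN15 and CLDN7 added. Without FOS replicate 1 the FOS count was 10, with CLDN3 added. Merging regions within 500 bp left 0 lost regions and 1 gained region. With each replicate left out in turn, the counts ran from 1 to 12 lost and from 5 to 21 gained regions, since presence then rested on a single library of a clone. Over all genes, limma on covered length found 27 past the threshold without the length filter (14 higher and 13 lower), and between 0 and 25 when a replicate was left out, with 2 without knockout replicate 1 and 25, all lower, without knockout replicate 2. A clone left with a lone library was assumed to vary like the other clone. Members past the threshold numbered 0 in each of these fits. Same-numbered libraries of the clones had a correlation of -0.171 between their deviations, and the labels do not say that the numbers pair them. The replicate block gave 0 genes past the threshold and 688 with an unadjusted p under 0.05. The crossed pairing, chosen after seeing the data, gave 0 and 1283, and a window of 2 kb on each side of the first start, also added then, gave 0 and 494. Peak lists without counts limit all results here to presence, rank and length.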

Other observations

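Some peaks in member windows were called in 1 replicate alone and are given as values. MYRF in HPAF2 had a peak in replicate 2 near CLDN7 at chr17:7220313-7220619, with a fold of 4.24, overlapping the replicate 2 FOS peak of the site near DLG4. It also had a peak in replicate 2 near CLDN15 at chr7:101244847-101245195, with a fold of 2.82 at percentile 0.7. In the CLDN3 window replicate 1 of HPAF2 had a MYRF peak at chr7:73739009-73739208 with a fold of 4.39, and FOS had a peak in replicate 2 at chr7:73718920-73719472 with a fold of 5.14. FOS replicate 2 had a peak just downstream of the CLDN12 start at chr7:90403597-90403859, its summit 266 bp from the start, with a fold of 6.83 at percentile 69.0, and none was called there in replicate 1.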
